A study of Mus musculus with 8 samples.

Results

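Tmem176a and Tmem176b are neighbouring genes on mouse chromosome 6 that are transcribed away from each other. They were chosen by their measured values in these arrays, so their levels and differences are a description, with no test and no p. The pair takes up 3 of the 22523 rows that are not array controls. The 2 rows of Tmem176a hold identical values and count once, which leaves 2 of 18172 distinct value profiles.

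The arrays compare p53-null mouse fetal fibroblast lines that renew themselves asymmetrically or symmetrically. Ind-8 (ASYM, 3 arrays) carries a p53 cDNA under a zinc-responsive metallothionein promoter, Con-3 (SYM, 3 arrays) carries no p53 cDNA, and tI-3 (p53SYM, 2 arrays) carries the p53 cDNA together with a constitutive IMPDH II cDNA. All cultures grew with 65 µM ZnCl2 for 48 hours and with puromycin at 5 µg/ml, and tI-3 also received G418. Each state is represented by 1 line, so a difference between states and a difference between lines cannot be told apart, nor can the IMPDH II cDNA and G418.

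TMEM176A and TMEM176B are small proteins with several membrane-spanning segments, related to the CD20-like (MS4A) family. They are known from dendritic cells, macrophages and some lymphoid cells, where they lie in intracellular membranes. TMEM176B is described as a cation channel and as an inhibitor of the NLRP3 inflammasome.

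Con-3 replicate 3 stood apart from the other arrays in its control rows. Its 18S rRNA control level was 10.6, against 5.58 to 6.46 on the other 7 arrays, and the mean of its 14 hybridization-control rows was 9.62. Those hybridization controls were also high on tI-3 replicates 1 and 2 (9.43 and 9.71), against 8.98 to 9.16 on the remaining arrays. Values for the pair are therefore given with and without Con-3 replicate 3.

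The start regions of the 2 genes are shown because their layout makes the pair: the first-listed start site of Tmem176b lies 346 bases before that of Tmem176a, on the opposite strand. The windows, read from RefSeq annotation of build GRCm38.p6, each run from 250 bases before the start site to 50 after it and share 155 bases. The Tmem176a window is chr6:48841233-48841532 on the plus strand, and the Tmem176b window is chr6:48841088-48841387 on the minus strand. Capitals mark the pattern TGCNCNC, on either strand. It is looser than the metal response element core, since it allows any base where that core has A or G.
Tmem176a: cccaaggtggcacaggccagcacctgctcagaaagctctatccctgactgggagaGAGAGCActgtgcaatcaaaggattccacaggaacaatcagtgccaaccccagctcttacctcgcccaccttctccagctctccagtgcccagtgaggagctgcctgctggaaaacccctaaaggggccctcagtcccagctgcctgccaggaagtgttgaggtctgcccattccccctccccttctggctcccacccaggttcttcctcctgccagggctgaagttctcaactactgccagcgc
Tmem176b: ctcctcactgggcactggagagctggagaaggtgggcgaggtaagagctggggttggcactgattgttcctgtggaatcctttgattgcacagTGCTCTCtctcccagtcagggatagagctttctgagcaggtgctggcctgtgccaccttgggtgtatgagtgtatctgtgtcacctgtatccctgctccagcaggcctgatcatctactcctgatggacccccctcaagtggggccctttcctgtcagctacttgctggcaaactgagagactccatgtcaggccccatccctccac

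The marked match is the same stretch in both windows, chr6:48841288-48841294, read from opposite strands. It reads TGCTCTC, with T where the metal response element core has A or G, so it matches the loose pattern only. This pattern occurs in 51.0% of the 32851 start windows in the table, so its presence is a description of the sequence only. Neither gene has the ROR half-site AGGTCA (16.3% of windows), a p53 half-site (8.36%), a TATAAA box (13.6%), a CCAAT box (37.4%), a GC box GGGCGG (35.7%) or an E-box CACGTG (7.15%) in any of its annotated windows, 2 for Tmem176a and 3 for Tmem176b. Both printed windows hold few CpG pairs, 2 for Tmem176a and 1 for Tmem176b, against a median of 7 over all windows. The other annotated windows hold 5 for Tmem176a, and 4 and 2 for Tmem176b. Of all windows, 43.6% hold at most 5.

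Tmem176a read 4.94, 4.78 and 5.06 on the Ind-8 arrays, 4.92, 5.00 and 4.88 on the Con-3 arrays, and 8.73 and 8.65 on the tI-3 arrays (log2). Tmem176b read 6.33, 6.51 and 6.68 in Ind-8, 6.29, 6.45 and 6.81 in Con-3, and 11.38 and 11.37 in tI-3. Both genes were higher on each tI-3 array than on any array of the other lines. The lowest tI-3 value of Tmem176a lay 3.59 above the highest of the other 6 arrays, and that of Tmem176b lay 4.56 above, while those 6 arrays spanned only 0.27 and 0.52.

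Tmem176a had means of 4.93 (SD 0.138) in Ind-8, 4.93 (SD 0.0598) in Con-3 and 8.69 (SD 0.0533) in tI-3. It was higher in tI-3 than in Ind-8 by 3.76 (SE 0.106, 13.6-fold) and higher in tI-3 than in Con-3 by 3.75 (SE 0.106, 13.5-fold). Tmem176b had means of 6.51 (SD 0.177), 6.52 (SD 0.265) and 11.38 (SD 0.0130) in the same order. It was higher in tI-3 than in Ind-8 by 4.87 (SE 0.154, 29.2-fold) and higher in tI-3 than in Con-3 by 4.86 (SE 0.154, 29.0-fold). The 2 comparisons share the tI-3 arrays, so they are not independent of each other.

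Ind-8 and Con-3 overlapped for both genes. The difference Ind-8 minus Con-3 was -0.0087 (SE 0.0950) for Tmem176a and -0.01 (SE 0.138) for Tmem176b. Without Con-3 replicate 3 these differences were -0.033 and 0.14, and the rise in tI-3 over Con-3 was 3.73 for Tmem176a and 5.00 for Tmem176b. Ind-8 carries the zinc-controlled p53 cDNA as tI-3 does, and Con-3 grew in the same zinc. The part of the p53 cDNA or of zinc in the levels of the pair was not tested.

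**Figure D1:**
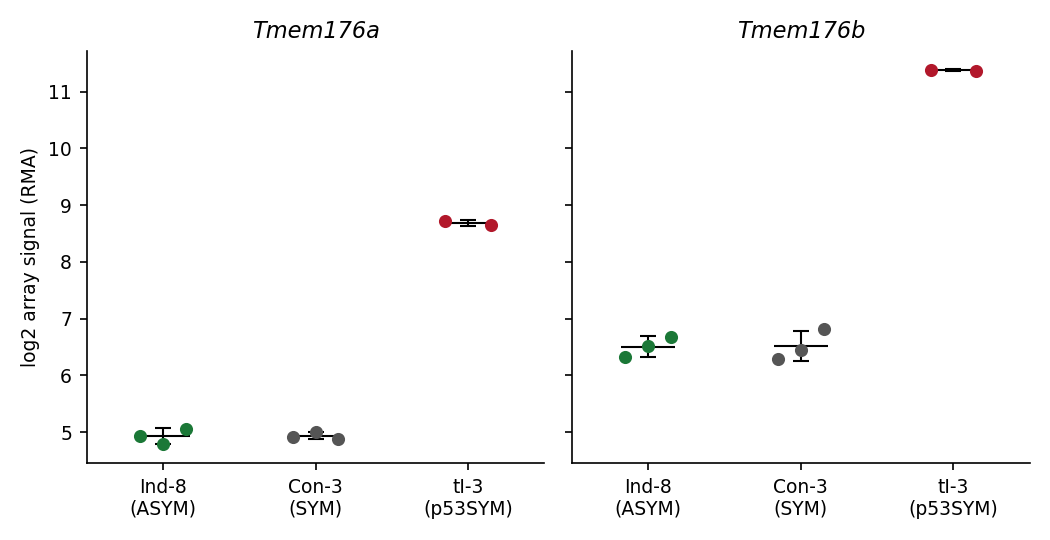
Level of Tmem176a and Tmem176b on each of the 8 arrays. Both genes are high on the 2 tI-3 arrays and lie close together on the arrays of Ind-8 and Con-3.

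Within each array, the rise was larger for Tmem176b than for Tmem176a. The level of Tmem176b minus that of Tmem176a was 1.58 (SD 0.176) in Ind-8, 1.58 (SD 0.298) in Con-3 and 2.69 (SD 0.0403) in tI-3, and only the change of this gap between lines is meaningful, since different probes read the 2 genes. By rank among the levels of each line, Tmem176a moved from a mean percentile of 37.2 in Ind-8 and 36.5 in Con-3 to 81.2 in tI-3. Tmem176b moved from 53.7 and 53.9 to 98.0. Different probes read each profile, so here too only the move between lines is meaningful.

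Against all 18172 profiles, the pair held the top of the tI-3 rise. In tI-3 minus Ind-8, Tmem176b ranked 1 and Tmem176a ranked 2. In tI-3 minus Con-3, they ranked 2 and 3, after Mmp13 (4.91). Taking for each profile the smaller of its 2 differences, 55 profiles were higher in tI-3 than in both other lines by over 1 on the log2 scale, 10 by over 2, and 2 by over 3, and these last 2 were Tmem176a and Tmem176b. In the other direction 164, 17 and 5 profiles were lower in tI-3 than in both lines by as much.

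**Figure D2:**
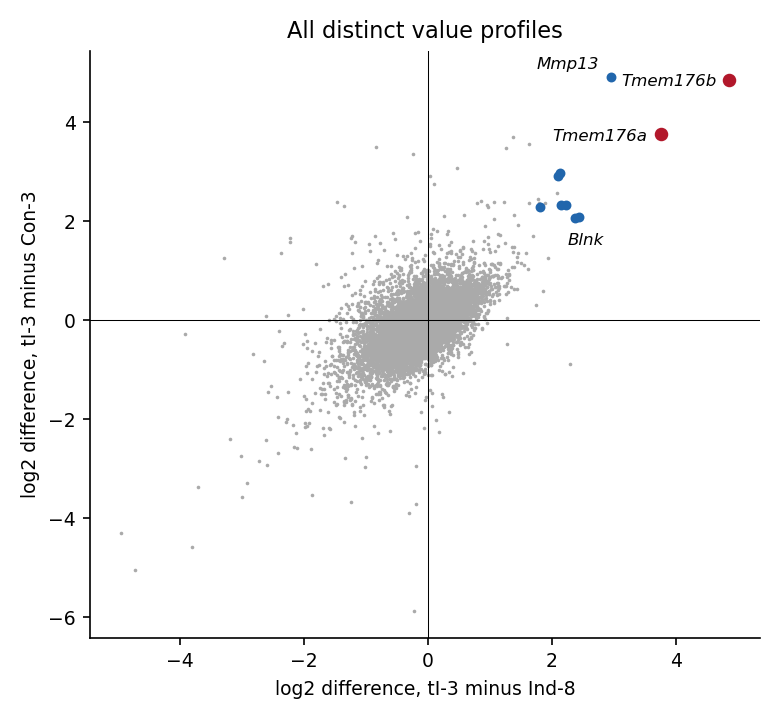
Difference tI-3 minus Ind-8 against tI-3 minus Con-3 for the 18172 distinct profiles. Tmem176a and Tmem176b are the 2 profiles over 3 on both axes.

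The 10 named genes with the largest smaller rise were, after Tmem176b (4.86) and Tmem176a (3.75), Mmp13 (2.96), Pcdhb21 (2.23), Ppargc1a (2.15), Pate14 (2.14), Slc22a29 (2.10), Rims2 (2.09), Blnk (2.07) and Cp (1.82). They are mixed in kind: a collagenase, a protocadherin, a transcriptional coactivator, a secreted testis and prostate protein, an organic anion transporter, a presynaptic protein, a B cell adaptor and the copper protein ceruloplasmin. Mmp13 differed from the pair in its spread, with 7.97, 6.87 and 5.38 in Ind-8, 6.29, 4.20 and 3.89 in Con-3, and 10.08 and 9.32 in tI-3. Its SD was 1.30 in Ind-8 and 1.31 in Con-3, while Tmem176a and Tmem176b moved between lines with little spread inside them.

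Over the 8 arrays, each gene of the pair was nearest to the other among the 15653 named genes. The root mean square difference was 0.509 between profiles centred on their own means. The profiles were not scaled, so this difference also reflects the size of the change, for which the pair was chosen. For Tmem176a the next were Pcdhb21 (0.669), Slc22a29 (0.674), Ppargc1a (0.676) and Pate14 (0.686). For Tmem176b they were Pate14 (1.12), Slc22a29 (1.12), Rims2 (1.14) and Pcdhb21 (1.15). All of these come from the 10 genes with the largest smaller rise, so likeness to the pair here meant a higher level in tI-3 than in both other lines.

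**Figure D3:**
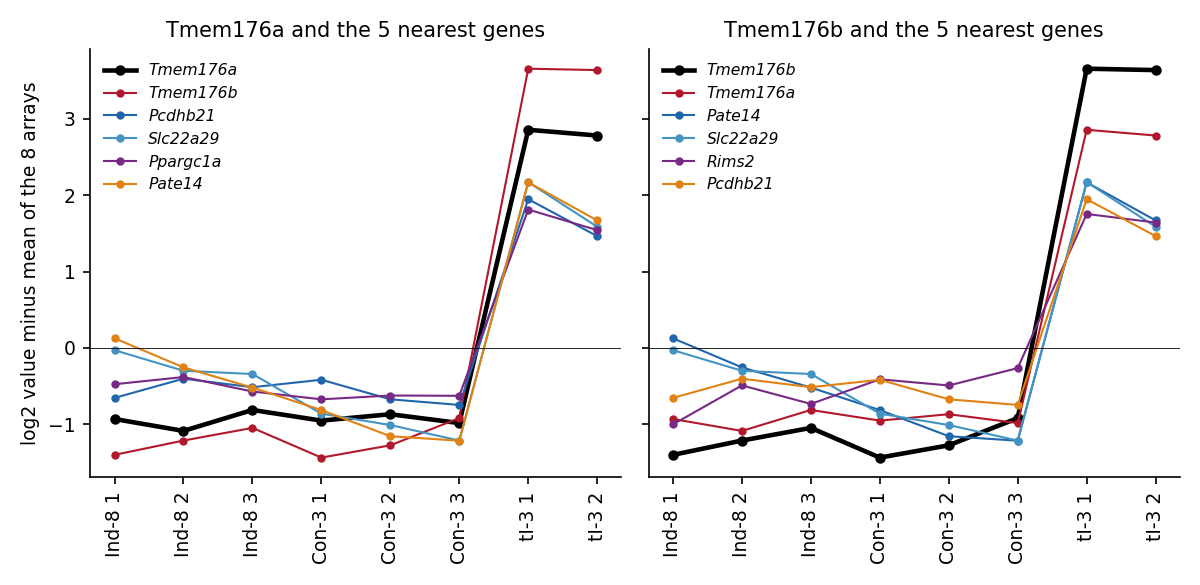
Centred profiles of Tmem176a, Tmem176b and the named genes nearest to them over the 8 arrays.

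The nearest genes with a row on chromosome 6 moved far less than the pair. It took 19 annotated genes on one side and 36 on the other to reach 12 with a row. The closest with a row were Gimap3, number 4 on its side, and Aoc1, number 3, so the genes closer to the pair were not read. Of the 24 neighbours with a row, 12 on each side, limma called 4 higher and 3 lower in tI-3 than in Ind-8, beside 15.5% and 15.6% of all rows. In tI-3 against Con-3 it called 3 higher and 3 lower, beside 10.2% and 15.1% of all rows, and in Ind-8 against Con-3 it called 3 higher and 1 lower, beside 10.9% and 11.0%. The largest difference of any neighbour in the tI-3 comparisons was that of Gpnmb, -1.07 in tI-3 minus Ind-8 and 1.09 in tI-3 minus Con-3, against 3.75 to 4.87 for the pair. The counts for tI-3 rest on few arrays: without tI-3 replicate 1 or replicate 2 the 7 calls against Ind-8 became 2, without Ind-8 replicate 1, Ind-8 replicate 2 or Con-3 replicate 2 they became 4, and without tI-3 replicate 2 the 6 calls against Con-3 became 3. With a block for the hybridization controls they became 0 and 1, and the rank product test called 0 in both.

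On one side the 3 nearest genes with a row are Gimap3, Gimap5 and Gimap1, and limma called none of them in any comparison. Gimap3 had 5.82 in Ind-8, 5.93 in Con-3 and 5.83 in tI-3 (tI-3 minus Ind-8 0.011, adjusted p = 0.966; tI-3 minus Con-3 -0.099, adjusted p = 0.713). Gimap5 had 3.78, 3.74 and 4.06 (0.28, adjusted p = 0.0913; 0.32, adjusted p = 0.0724), and Gimap1 had 3.51, 3.71 and 3.58 (0.071, adjusted p = 0.603; -0.13, adjusted p = 0.368). These are GTPases of immune cells, and Gimap5 and Gimap1 lay near the dim end of the arrays, where a small change is hard to read. Further out on that side Gimap4 was higher in tI-3 than in Ind-8 (0.37, adjusted p = 0.0150), while Gimap7, Gimap6, Gimap9, Gimap8, AI854703 and Rarres2 were called in no comparison. The call of Gimap4 ended without 1 array (adjusted p = 0.0977 without tI-3 replicate 1).

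On the other side the nearest with a row are Aoc1, Doxl1 and Gpnmb, 2 genes of the diamine oxidase family and a glycoprotein of pigment cells and macrophages. Aoc1 rose from 4.77 in Ind-8 to 5.32 in tI-3 (0.55, adjusted p = 0.0364) and Doxl1 from 4.50 to 4.79 (0.29, adjusted p = 0.0343), with Con-3 between them at 4.99 and 4.62. Gpnmb was highest in Ind-8 (7.02, against 4.86 in Con-3 and 5.95 in tI-3), with differences of 2.16 in Ind-8 minus Con-3 (adjusted p = 0.000959), -1.07 in tI-3 minus Ind-8 (adjusted p = 0.0388) and 1.09 in tI-3 minus Con-3 (adjusted p = 0.0417). Each of these tI-3 calls ended without 1 array: Aoc1 (adjusted p = 0.24 without tI-3 replicate 1), Doxl1 (adjusted p = 0.144 without tI-3 replicate 1) and Gpnmb (adjusted p = 0.261 without tI-3 replicate 2 and 0.242 without tI-3 replicate 1), the last in tI-3 against Ind-8 and against Con-3. Gpnmb thus followed another order of lines than the pair, and the rises of Aoc1 and Doxl1 were small beside those of Tmem176a and Tmem176b.

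Among the more distant neighbours, Npy alone of the 24 was called higher in tI-3 than in both other lines (0.50, adjusted p = 0.00703 over Ind-8; 0.47, adjusted p = 0.00907 over Con-3). Without tI-3 replicate 2 both of its calls ended (adjusted p = 0.0766 and 0.103). Ccdc126 was lower in tI-3 than in both (-0.96, adjusted p = 0.00367; -0.78, adjusted p = 0.00938), the opposite of the pair. Zfp775 was lower in tI-3 than in Ind-8 (-0.50, adjusted p = 0.0321) and Igf2bp3 lower in tI-3 than in Con-3 (-0.63, adjusted p = 0.00325). Leaving out 1 array ended the calls of Ccdc126 (adjusted p = 0.0773 without tI-3 replicate 2) and Zfp775 (adjusted p = 0.162 without tI-3 replicate 2), that of Ccdc126 only against Con-3.

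The remaining calls set Con-3 apart from 1 or both of the other lines. Repin1 was higher in Ind-8 than in Con-3 (0.39, adjusted p = 0.00821) and in tI-3 than in Con-3 (0.36, adjusted p = 0.0175), and Mpp6 was lower in both (-0.57, adjusted p = 0.00479; -0.64, adjusted p = 0.00379). Osbpl3 was higher in Ind-8 than in Con-3 (0.49, adjusted p = 0.0192). The tI-3 call of Repin1 ended without 1 array (adjusted p = 0.118 without tI-3 replicate 1), and so did the call of Osbpl3 (adjusted p = 0.0787 without Ind-8 replicate 2). Tra2a, Fam221a, Stk31 and Gsdme were called in no comparison, so the large rise within this stretch of chromosome 6 was confined to Tmem176a and Tmem176b among the genes read here.

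**Figure D4:**
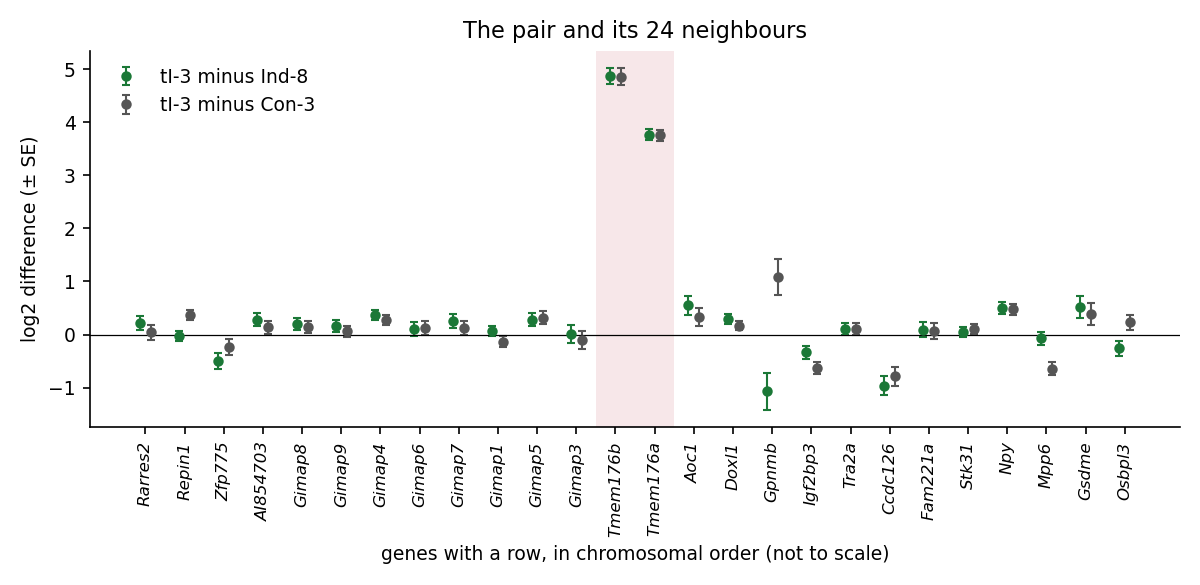
Difference between lines for the pair and its 24 neighbours in gene order on chromosome 6.

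Of the MS4A relatives of the pair, 16 of 21 had a row, and 11 of them lay in the dimmest 25% of rows by mean level. limma called 0 of 16 in Ind-8 against Con-3 in either direction, beside 10.9% higher and 11.0% lower of all rows (by unadjusted p 0 higher and 0 lower, by rank product 0 and 0). It called 2 higher in tI-3 than in Ind-8 (12.5%, beside 15.5% of all rows) and 1 higher in tI-3 than in Con-3 (6.25%, beside 10.2%). Ms4a15 was higher in tI-3 than in Ind-8 (0.70, adjusted p = 0.00372) and than in Con-3 (0.46, adjusted p = 0.0261), and Ms4a3 was higher in tI-3 than in Ind-8 (0.36, adjusted p = 0.0449). The rise of Ms4a15 was far smaller than that of the pair, and its call against Con-3 ended without Con-3 replicate 1 or 2 and without tI-3 replicate 1 or 2 (highest adjusted p = 0.121 without tI-3 replicate 2). The call of Ms4a3 ended without Ind-8 replicate 1 or 2 and without tI-3 replicate 1 or 2 (highest adjusted p = 0.168 without tI-3 replicate 2), which left a count of 1 against Ind-8.

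Nuclear receptor and retinoid genes were read as another list fixed beside the pair. Of 19 ROR and retinoid genes with a row, 3 were higher and 2 lower in Ind-8 than in Con-3 (beside 10.9% and 11.0% of all rows), 3 higher and 2 lower in tI-3 than in Ind-8 (beside 15.5% and 15.6%), and 4 higher and 1 lower in tI-3 than in Con-3 (beside 10.2% and 15.1%). The 3 higher in tI-3 than in Ind-8 are 15.8% of the list, near the share of all rows. Aldh1a2 and Cyp26b1, which make and break down retinoic acid, were the 2 called higher in tI-3 than in both lines, and Aldh1a2 is named here after its values were seen. Cyp26b1 was higher by 0.64 than in Ind-8 (adjusted p = 0.0198) and by 0.81 than in Con-3 (adjusted p = 0.00681), and Aldh1a2 by 0.55 (adjusted p = 0.0222) and 0.48 (adjusted p = 0.0429). All 4 calls ended without tI-3 replicate 2 (Cyp26b1 adjusted p = 0.185 and 0.0845, Aldh1a2 adjusted p = 0.22 and 0.376).

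Other retinoid genes followed different orders. The retinoic acid binding gene Crabp1 was high in Con-3 alone (3.91 in Ind-8, 5.45 in Con-3 and 3.98 in tI-3; Ind-8 minus Con-3 -1.54, adjusted p = 9.57e-05; tI-3 minus Con-3 -1.47, adjusted p = 0.000177), and Crabp2 was higher in tI-3 than in Con-3 (1.10, adjusted p = 0.0324). Rora was highest in Ind-8 (0.78, adjusted p = 0.00207 over Con-3; tI-3 minus Ind-8 -0.54, adjusted p = 0.0188), and Rarb was lower in Ind-8 than in Con-3 (-0.59, adjusted p = 0.0285). Leaving out 1 array ended the calls of Crabp2 (adjusted p = 0.141 without tI-3 replicate 1), Rora (adjusted p = 0.101 without tI-3 replicate 2) and Rarb (adjusted p = 0.0928 without Ind-8 replicate 3), that of Rora in the tI-3 comparison only. The 5 calls of tI-3 against Ind-8 became 0 without Ind-8 replicate 2, 1 without tI-3 replicate 2, 2 without Ind-8 replicate 1 and 3 without tI-3 replicate 1. The 5 calls of tI-3 against Con-3 became 1 without tI-3 replicate 2 and 3 without Con-3 replicate 1 or 3, and the 5 of Ind-8 against Con-3 became 3 without Ind-8 replicate 2, Ind-8 replicate 3 or Con-3 replicate 1.

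Inflammasome genes were fixed as a list because TMEM176B is known to inhibit the NLRP3 inflammasome. Of 15 with a row, 6 were higher and 1 lower in tI-3 than in Ind-8 (beside 15.5% and 15.6% of all rows), 4 higher and 0 lower in tI-3 than in Con-3 (beside 10.2% and 15.1%), and 3 higher and 1 lower in Ind-8 than in Con-3 (beside 10.9% and 11.0%). For that count of 0, limma called 0 lower by unadjusted p as well, and the rank product test called 0 of 15 in either direction. The 7 calls against Ind-8 became 2 without tI-3 replicate 1 and 3 without tI-3 replicate 2, and with a block for the hybridization controls they became 0 higher and 1 lower, so the upward calls were lost.

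Casp4, which senses cytosolic lipopolysaccharide, and Aim2, which senses cytosolic DNA, were higher in tI-3 than in both lines, as the pair was. Casp4 was higher by 0.58 than in Ind-8 (adjusted p = 0.0101) and by 0.77 than in Con-3 (adjusted p = 0.0024), and Aim2 by 0.67 (adjusted p = 0.00947) and 0.81 (adjusted p = 0.00377). The ATP-gated channel gene P2rx4 was low in Con-3 (Ind-8 minus Con-3 0.92, adjusted p = 0.000304; tI-3 minus Con-3 0.89, adjusted p = 0.00058), and so was the pore-forming Gsdmd (Ind-8 minus Con-3 0.50, adjusted p = 0.00645; tI-3 minus Con-3 0.39, adjusted p = 0.0288). Panx1 was low in Ind-8 (Ind-8 minus Con-3 -0.58, adjusted p = 0.00456; tI-3 minus Ind-8 0.76, adjusted p = 0.0019) and Txnip was high there (Ind-8 minus Con-3 0.52, adjusted p = 0.0418; tI-3 minus Ind-8 -0.73, adjusted p = 0.013). Nlrp3 itself, named after its values were seen, was higher in tI-3 than in Ind-8 (0.36, adjusted p = 0.0466) and not called against Con-3 (0.27, adjusted p = 0.139). Leaving out 1 array ended the calls against Ind-8 of Casp4 (adjusted p = 0.0748 without tI-3 replicate 1), Aim2 (adjusted p = 0.0594 without tI-3 replicate 2) and Nlrp3 (adjusted p = 0.249 without tI-3 replicate 2), the tI-3 call of Gsdmd (adjusted p = 0.178 without tI-3 replicate 1) and both calls of Txnip (adjusted p = 0.147 without Ind-8 replicate 2 and 0.088 without tI-3 replicate 2). The changes in these genes were all under 1 on the log2 scale, against 3.75 or more for the pair.

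Because the pair is known from dendritic cells and lymphoid cells, marker lists of cell types were read beside it. Of 18 myeloid markers with a row, 6 were higher and 0 lower in tI-3 than in Ind-8 (beside 15.5% and 15.6% of all rows), 2 higher and 0 lower in tI-3 than in Con-3 (beside 10.2% and 15.1%), and 0 higher and 1 lower in Ind-8 than in Con-3 (beside 10.9% and 11.0%). By unadjusted p limma called 9 higher in tI-3 than in Ind-8 and 3 higher in tI-3 than in Con-3 with 0 lower in each, and the rank product test called 1 and 0 higher with 0 lower. Their summed linear level was 773, 738 and 684 on the Ind-8 arrays, 1218, 1112 and 1119 on the Con-3 arrays and 1582 and 1466 on the tI-3 arrays, and Cd14, which fibroblasts also express, was the brightest gene (8.08 in Ind-8, 9.35 in Con-3 and 9.94 in tI-3; Ind-8 minus Con-3 -1.27, adjusted p = 0.0013; tI-3 minus Ind-8 1.86, adjusted p = 0.000286; tI-3 minus Con-3 0.59, adjusted p = 0.0708). Without Cd14 the sum was 433, 440.5 and 488 in Ind-8, 454.5, 476 and 546 in Con-3, and 482 and 588 in tI-3, so Cd14 carried most of the rise of the sum. Ptprc (3.50, 3.66 and 3.61) and Itgam (3.58, 3.71 and 3.59), 2 leukocyte markers chosen after their values were seen, lay near the dim end in every line and were called in no comparison, unlike the 6 markers of the list called higher in tI-3 than in Ind-8.

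Csf1r and Fcer1g were the 2 myeloid markers called higher in tI-3 than in both lines (Csf1r 0.44, adjusted p = 0.011 and 0.33, adjusted p = 0.0415; Fcer1g 0.61, adjusted p = 0.0102 and 0.55, adjusted p = 0.0173). Tyrobp (0.46, adjusted p = 0.0163), Cd209a (0.40, adjusted p = 0.0288) and Adgre1 (0.36, adjusted p = 0.0323) were higher in tI-3 than in Ind-8. Each of these calls ended without 1 array: Csf1r (adjusted p = 0.0598 without tI-3 replicate 2 and 0.154 without tI-3 replicate 1), Fcer1g (adjusted p = 0.0842 without tI-3 replicate 2 and 0.121 without tI-3 replicate 2), Tyrobp (adjusted p = 0.105 without tI-3 replicate 1), Cd209a (adjusted p = 0.254 without tI-3 replicate 2) and Adgre1 (adjusted p = 0.165 without tI-3 replicate 2).

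Of 9 lymphoid markers with a row, 4 were higher in tI-3 than in Ind-8 (beside 15.5% of all rows) and 1 higher than in Con-3 (11.1%, beside 10.2%), with 0 called lower in either (beside 15.6% and 15.1%). Cd3e was higher in tI-3 than in both lines (0.43, adjusted p = 0.0106; 0.42, adjusted p = 0.0132), while Zap70 (0.67, adjusted p = 0.0183) and Cd8a (0.33, adjusted p = 0.0269) were called higher against Ind-8 and not against Con-3, a difference between comparisons that was not tested. These calls too ended without 1 array: Cd3e (adjusted p = 0.109 without tI-3 replicate 2 and 0.133 without tI-3 replicate 2), Zap70 (adjusted p = 0.155 without tI-3 replicate 2) and Cd8a (adjusted p = 0.144 without tI-3 replicate 2). In Ind-8 against Con-3 limma called 0 lymphoid markers, beside 10.9% higher and 11.0% lower of all rows (by unadjusted p 0 higher and 1 lower, by rank product 0 and 0), and in the other comparisons it called 0 lower by unadjusted p and the rank product test called 0. Lck, the brightest lymphoid marker, was called in no comparison (5.69, 5.72 and 5.65), and the summed linear level of the list was 233, 234 and 242 in Ind-8, 245, 243 and 267 in Con-3, and 292 and 281 in tI-3.

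The low end of the tI-3 arrays was itself raised, as was that of Con-3 replicate 3. The 25th percentile of level was 4.39 and 4.43 on the tI-3 arrays and 4.38 on Con-3 replicate 3, against 4.19 to 4.27 on the remaining arrays. The part of this low end in the calls of immune markers was not tested. Among rows above the 25th percentile, 5 of 12 myeloid and 3 of 6 lymphoid markers were called higher in tI-3 than in Ind-8, beside 18.1% of all such rows. The 5631 rows in the dimmest 25% had a median difference of 0.14 in tI-3 minus Ind-8 and 0.07 in tI-3 minus Con-3, against -0.0036 and 0.0062 for the other rows, and after the arrays were quantile-normalized again the dim rows had 0.013 and 0.0041. With that normalization the markers called higher in tI-3 than in Ind-8 went from 6 to 3 for the myeloid list and from 4 to 2 for the lymphoid list. Without tI-3 replicate 2 they were 2 and 1, and with a block for the hybridization controls 1 and 0. The lymphoid calls against Ind-8 also became 1 without Ind-8 replicate 1 and 2 without Ind-8 replicate 2 or tI-3 replicate 1. Against Con-3 the 2 myeloid calls became 0 without Con-3 replicate 2 or tI-3 replicate 2 and 1 without Con-3 replicate 1 or tI-3 replicate 1, and the 1 lymphoid call became 2 without Con-3 replicate 3. The part of these markers in the rise of the pair was not tested. A changed number of cells of a type and a changed amount of RNA per cell cannot be told apart. Over all 5 marker lists the 22 calls of tI-3 against Ind-8 became 14 without tI-3 replicate 2, the 15 of tI-3 against Con-3 became 9 without tI-3 replicate 1 and 8 without tI-3 replicate 2, and the 7 of Ind-8 against Con-3 became 4 without Ind-8 replicate 2 or Con-3 replicate 3. With a block for the hybridization controls they became 5, 6 and 4.

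Several fibroblast genes were lower in tI-3, the other way from the pair, and others were not. Of 15 fibroblast markers, 1 was higher and 8 lower in tI-3 than in Ind-8 (beside 15.5% and 15.6% of all rows). Against Con-3, 4 were higher and 6 lower in tI-3 (beside 10.2% and 15.1%), and 3 higher and 1 lower in Ind-8 (beside 10.9% and 11.0%). Without Ind-8 replicate 2, Con-3 replicate 1 or Con-3 replicate 3, the calls of Ind-8 against Con-3 became 2 higher and 0 lower. Leaving out any 1 array ended that 1 lower call, of Thy1. With a block for the hybridization controls, the calls of tI-3 against Ind-8 became 0 higher and 4 lower, without Col3a1 and Col5a1. Those of tI-3 against Con-3 became 0 higher and 6 lower, and those of Ind-8 against Con-3 2 higher and 0 lower. Col3a1 had 8.80 in Ind-8, 9.07 in Con-3 and 6.38 in tI-3 (tI-3 minus Ind-8 -2.42, adjusted p = 0.0013; tI-3 minus Con-3 -2.68, adjusted p = 0.000621). Fbln2 (-1.52, adjusted p = 5.51e-05; -1.65, adjusted p = 2.99e-05), Pdgfra (-1.51, adjusted p = 0.000463; -1.04, adjusted p = 0.00301), Col1a1 (-1.49, adjusted p = 0.000907; -1.06, adjusted p = 0.00474), Sparc (-1.11, adjusted p = 8.07e-05; -0.97, adjusted p = 0.000146) and Col5a1 (-0.68, adjusted p = 0.00391; -0.78, adjusted p = 0.00154) were likewise lower in tI-3 than in both lines. Thy1, named after its values were seen, was the 1 marker of this list called higher in tI-3 than in both lines (0.67, adjusted p = 0.00158; 0.37, adjusted p = 0.0275, which became 0.165 without tI-3 replicate 1). Without tI-3 replicate 1 the calls of tI-3 against Con-3 became 0 higher and 5 lower. The others called higher in tI-3 than in Con-3, also named after their values were seen, were Fn1 (0.28, adjusted p = 0.0481; but lower in tI-3 than in Ind-8, -0.42, adjusted p = 0.00771), Pdgfrb (0.33, adjusted p = 0.03) and Twist1 (0.50, adjusted p = 0.0121), and each of these calls ended without 1 array: Fn1 (adjusted p = 0.235 without tI-3 replicate 2), Pdgfrb (adjusted p = 0.121 without tI-3 replicate 1) and Twist1 (adjusted p = 0.106 without tI-3 replicate 1). The lower call of Fn1 ended as well (adjusted p = 0.0503 without tI-3 replicate 1). Vim, the brightest, had 14.05, 13.88 and 13.65 and was lower in tI-3 than in Ind-8 (-0.39, adjusted p = 0.0122), a small change beside that of Col3a1. Leaving out 1 array ended the calls of Col1a1 (adjusted p = 0.0518 without tI-3 replicate 1) and Vim (adjusted p = 0.116 without tI-3 replicate 2), that of Col1a1 only against Con-3.

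Of 10 epithelial markers, 1 was higher and 1 lower in tI-3 than in Ind-8 (beside 15.5% and 15.6% of all rows), 1 higher in Ind-8 than in Con-3 (beside 10.9%), and 0 were called in tI-3 against Con-3 (beside 10.2% and 15.1%). For that count of 0, limma called 4 higher and 0 lower by unadjusted p, and the rank product test called 0 and 0. The count became 1 higher and 0 lower without Con-3 replicate 1, Con-3 replicate 2 or Con-3 replicate 3 and with a replicate block. It also rose without tI-3 replicate 1, which leaves 1 tI-3 array. Krt19, the brightest, was higher in Ind-8 than in Con-3 (0.82, adjusted p = 0.00564) and lower in tI-3 than in Ind-8 (-1.04, adjusted p = 0.00289). Grhl2 was higher in tI-3 than in Ind-8 (0.52, adjusted p = 0.00643). With a block for the hybridization controls, the calls of Krt19 and Grhl2 in tI-3 against Ind-8 both ended, which left 0 higher and 0 lower. Of 8 endothelial markers, 1 was higher in tI-3 than in Ind-8 (beside 15.5% of all rows), 2 were higher in tI-3 than in Con-3 (beside 10.2%) and 1 was lower in Ind-8 than in Con-3 (beside 11.0%). Kdr, the brightest, was highest in tI-3 and, unlike the pair, lower in Ind-8 than in Con-3 (5.84 in Ind-8, 6.16 in Con-3 and 6.60 in tI-3; Ind-8 minus Con-3 -0.32, adjusted p = 0.0377; tI-3 minus Ind-8 0.76, adjusted p = 0.000877; tI-3 minus Con-3 0.44, adjusted p = 0.0132), and Vwf was higher in tI-3 than in Con-3 (0.49, adjusted p = 0.0459). The calls against Con-3 ended without 1 array for Kdr (adjusted p = 0.124 without Ind-8 replicate 2 and 0.124 without tI-3 replicate 2) and Vwf (adjusted p = 0.256 without tI-3 replicate 1), those of Kdr in Ind-8 and in tI-3. The 2 endothelial calls of tI-3 against Con-3 became 0 without Con-3 replicate 2 or tI-3 replicate 2 and with a block for the hybridization controls, and 1 without Con-3 replicate 1, Con-3 replicate 3 or tI-3 replicate 1. The 1 call of Ind-8 against Con-3 became 0 without Ind-8 replicate 1, Ind-8 replicate 2, Con-3 replicate 1 or Con-3 replicate 3 and with that block, and without Ind-8 replicate 3 it was 1 higher and 0 lower. The call against Ind-8 in tI-3 became 0 with that block.

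**Figure D5:**
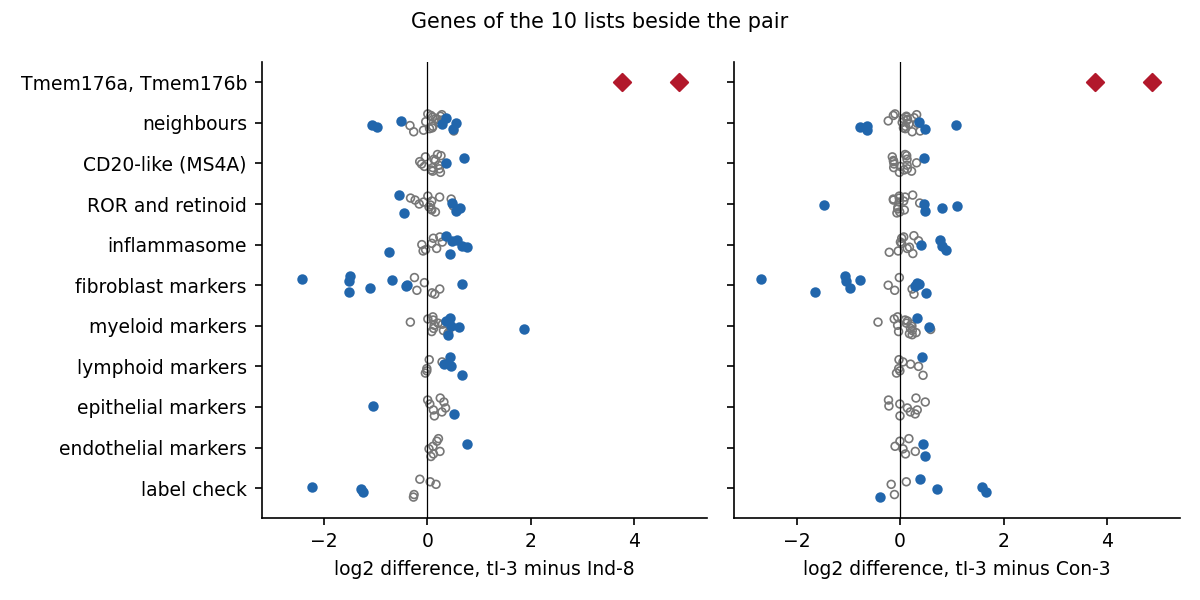
Difference between lines for each gene of the fixed lists, beside Tmem176a and Tmem176b.

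The p53 targets fixed to check the labels followed another order of lines than the pair. Cdkn1a had 9.66 in Ind-8, 5.86 in Con-3 and 7.44 in tI-3 (Ind-8 minus Con-3 3.81, adjusted p = 1.91e-08; tI-3 minus Ind-8 -2.22, adjusted p = 3.58e-06; tI-3 minus Con-3 1.59, adjusted p = 1.93e-05), Mdm2 had 10.90, 8.90 and 9.62 (2.00, adjusted p = 1.09e-05; -1.28, adjusted p = 0.000262; 0.72, adjusted p = 0.00492) and Ccng1 had 12.09, 9.19 and 10.85 (2.91, adjusted p = 1.11e-06; -1.24, adjusted p = 0.000469; 1.67, adjusted p = 8.02e-05). All 3 were highest in Ind-8 and intermediate in tI-3, whereas Tmem176a and Tmem176b were at the Con-3 level in Ind-8. Trp53 was higher in both lines with the p53 cDNA than in Con-3 (5.79, 5.25 and 5.64; Ind-8 minus Con-3 0.53, adjusted p = 0.00192; tI-3 minus Con-3 0.39, adjusted p = 0.0144), and the call against Con-3 in tI-3 ended without 1 array (adjusted p = 0.109 without tI-3 replicate 2).

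The IMPDH genes did not separate tI-3 as the pair did. Impdh2 had 12.19 in Ind-8, 12.53 in Con-3 and 12.36 in tI-3 and was lower in Ind-8 than in Con-3 (-0.34, adjusted p = 0.0108), with 0.17 in tI-3 minus Ind-8 (adjusted p = 0.163) and -0.17 in tI-3 minus Con-3 (adjusted p = 0.182). The authors state, citing earlier work, that IMPDH II expression is higher in the p53SYM state than in the SYM state. The Impdh2 row did not show this, and whether its probes read the IMPDH II cDNA is not known. Impdh1 had 8.04, 7.98 and 8.10 and Mt1 had 13.88, 13.73 and 13.62, with no call. Mt2 (13.33, 13.45 and 13.07) was lower in tI-3 than in Con-3 (-0.39, adjusted p = 0.0248), a call that ended without tI-3 replicate 2. These 2 zinc-responsive genes lay at the bright end of the arrays in all 3 lines, where a rise is hard to read. Neither was called higher in tI-3. Of these 8 genes, 4 were higher and 1 lower in Ind-8 than in Con-3 (beside 10.9% and 11.0% of all rows), 0 higher and 3 lower in tI-3 than in Ind-8 (beside 15.5% and 15.6%), and 4 higher and 1 lower in tI-3 than in Con-3 (beside 10.2% and 15.1%). Without tI-3 replicate 2 the last 5 became 3. For the count of 0 higher in tI-3 than in Ind-8, limma called 0 by unadjusted p and the rank product test called 0.

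The differences between lines changed little for the pair when arrays were left out, unlike the counts of its lists. Leaving out each array in turn kept the rise of Tmem176a in tI-3 between 3.69 and 3.83 over Ind-8 and between 3.72 and 3.79 over Con-3, and that of Tmem176b between 4.78 and 4.96 and between 4.75 and 5.00. With a block for the hybridization controls, the rise of Tmem176b was 4.43 over Ind-8 and 4.57 over Con-3. Against Con-3, this block compares tI-3 with Con-3 replicate 3 alone. Against Ind-8, it takes off the shift of Con-3 replicate 3 from the other Con-3 arrays. The tI-3 arrays come from 1 line, so the large rise of the pair describes that line.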

How the data were processed

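RNA of 8 cultures was measured on Affymetrix mouse arrays, 3 of Ind-8 (ASYM), 3 of Con-3 (SYM) and 2 of tI-3 (p53SYM). Per the submitters' processing notes the authors summarized the scans by RMA on a RefSeq-based probe set definition. The deposited table holds log2 values, used as they are, without 64 array control rows. Gene names came from the RefSeq table of GRCm38.p6, which named 18294 of 22523 rows (81.2%) as 15653 genes. A gene with several profiles took the one with the highest mean. Prrx1 has 2 profiles, of which the other is called in tI-3 against Con-3.

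limma 3.58.1 in R 4.3.3 fitted 1 mean per line, and a row was called at an adjusted p (Benjamini-Hochberg over 22523 rows) under 0.05. The comparisons share arrays. Groups came from the sample labels, and replicates are called biological replicates there. The pair and the lists were chosen with earlier results of these data known. Named genes are the pair, all neighbours (12 on each side with a row; values for those called and the 3 nearest), in each list up to 6 called genes with the largest difference and the brightest marker of each cell type, the genes that check the labels, 5 nearest profiles per member, and the 10 largest rises in tI-3. Genes under this rule whose results are withheld for evaluation are left out. A gene outside this rule is said to be chosen after its values were seen.

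Alternatives were quantile normalization again, median centring, each array left out in turn, a replicate block, a block for the hybridization controls, a fit on the 2 compared lines, a trend in the prior, each distinct profile counted once, rows above the 25th percentile, a log2 difference of at least 1, and a rank product test (re-implemented from its description, 100 permutations, pfp under 0.05). For the pair, the replicate block and the hybridization-control block were chosen after seeing the data. The fit and the rank product test were tested on simulated data. Other steps used Python 3.11.15, numpy 2.4.6, pandas 2.3.3 and matplotlib 3.10.9. An array has no depth: precision is limited by the number of arrays and by how far a row lies above the dim end (25th percentile of mean level 4.30).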

Additional observations from a re-analysis of the deposited data

Results flagged for a closer look

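The mean of the 14 hybridization-control rows on tI-3 replicate 2 was 9.71, a signal in control rows that are outside the tested rows and serve only to define a block in 1 alternative fit, above the highest Con-3 array (9.62, replicate 3). On the other tI-3 array it was 9.43.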

How the results depend on the processing

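The main limits are 2 arrays of tI-3, 1 line per state and many listed genes near the dim end of the arrays. The differences of Tmem176a and Tmem176b kept their direction in tI-3 against both lines under each alternative run for the pair, which were quantile normalization again, median centring, each array left out and the 2 blocks. Median centring, a fit on the 2 compared lines, a trend in the prior and distinct profiles counted once changed none of the counts named in this paragraph by over 1.5 times, with the 5 marker lists pooled. For single marker lists, median centring took the endothelial count in tI-3 against Con-3 from 2 to 1, and the trend took the myeloid count there from 2 to 1 and the endothelial count in Ind-8 against Con-3 from 1 to 0. No called difference reversed. The counts below run in the order Ind-8 against Con-3, tI-3 against Ind-8 and tI-3 against Con-3, and the main counts were 4, 7 and 6 for the neighbours, 0, 2 and 1 for MS4A genes, 5, 5 and 5 for ROR and retinoid genes, 4, 7 and 4 for inflammasome genes, 7, 22 and 15 for markers and 5, 3 and 5 for the genes that check the labels. The cause of each change was not tested unless named.

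Leaving out each array in turn gave ranges of 2 to 8 neighbours in tI-3 against Ind-8 and 3 to 6 against Con-3, 1 to 2 and 0 to 1 MS4A genes, 0 to 7 and 1 to 5 ROR and retinoid genes (3 to 5 in Ind-8 against Con-3), 2 to 7 inflammasome genes in tI-3 against Ind-8, and 4 to 7, 14 to 24 and 8 to 15 markers. The genes that check the labels gave 3 to 5 in tI-3 against Con-3. Where tI-3 keeps 1 array, that array is assumed to vary like the other lines. For the pair the difference Ind-8 minus Con-3 ran from -0.074 to 0.063 for Tmem176a and from -0.12 to 0.14 for Tmem176b.

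With a block for the hybridization controls, the rise of Tmem176b was 4.43 over Ind-8 and 4.57 over Con-3, and that of Tmem176a 3.84 and 3.80. In tI-3 against Ind-8 it called 0 neighbours, 0 MS4A, 0 ROR and retinoid and 1 inflammasome gene and 5 markers. In tI-3 against Con-3 it called 1 neighbour, 0 MS4A genes, 2 ROR and retinoid genes, 6 markers and 3 genes that check the labels, and in Ind-8 against Con-3 it called 4 markers. By its construction this block compares tI-3 with Con-3 replicate 3 alone. Over all rows it called 212 higher and 496 lower in tI-3 than in Ind-8, against 3500 and 3509, and 1139 and 1927 in tI-3 against Con-3, against 2304 and 3411.

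With a log2 difference of at least 1 the neighbours gave 1, 1 and 1, MS4A genes 0 and 0 in the tI-3 comparisons, ROR and retinoid genes 1, 0 and 2, inflammasome genes 0, 0 and 0, markers 1, 7 and 4, and the genes that check the labels 3 and 2 in Ind-8 and tI-3 against Con-3. The rank product test gave neighbours 1, 0 and 0, MS4A genes 0 and 0, ROR and retinoid genes 1, 0 and 1, inflammasome genes 1, 0 and 0, markers 1, 5 and 2, and the genes that check the labels 3 and 2. Over all rows it called 489 higher and 324 lower in Ind-8 than in Con-3, 94 and 359 in tI-3 against Ind-8 and 142 and 376 in tI-3 against Con-3. Quantile normalization again gave 4 neighbours and 1 MS4A gene in tI-3 against Ind-8. Rows above the 25th percentile gave 1 MS4A gene in tI-3 against Ind-8 and 3 ROR and retinoid genes in tI-3 against Con-3, from fewer genes. Without tI-3 replicate 2 the totals were 1039 higher and 1742 lower in tI-3 than in Ind-8 and 1183 and 1910 in tI-3 against Con-3.

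With a replicate block, tI-3 against Ind-8 gave 13 neighbours and tI-3 against Con-3 gave 2 MS4A genes, and the rise of Tmem176a was 3.78 over Ind-8 and of Tmem176b 4.98. The correlations of same-numbered Ind-8 and Con-3 arrays, each taken after its line's mean was removed, were 0.27, 0.0286 and 0.381. Those of differently numbered Ind-8 and Con-3 arrays ran from -0.408 to 0.117. Whether same-numbered arrays belong together was not tested.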
